A study of Mus musculus with 12 samples.

Results

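The 35 genes described here encode the subunits of the Polycomb complexes PRC1 and PRC2, the deubiquitinase complex PR-DUB, and both enzymes that remove methyl groups from lysine 27 of histone H3 (H3K27). They were taken by symbol from a list of complex members, out of 52169 gene symbols in the deposited transcript table. Each gene was followed through its transcript with the highest mean level over the 12 libraries. RNA had been sequenced from punches of the striatum, the forebrain region that receives dopamine from the midbrain, of C57BL/6J mice modelling Parkinson's disease and its treatment. All mice had received 6-OHDA, a toxin for dopamine neurons, at 3 µg/µl in 1 µl into the right medial forebrain bundle after desipramine, and had recovered for 2 weeks. All were then injected with L-DOPA, the dopamine precursor, at 10 mg/kg together with 7.5 mg/kg benserazide, which blocks its conversion outside the brain. The acute groups received 1 dose, the chronic groups 1 dose a day for 9 days, and tissue was taken 1 hour after the last dose. The 4 groups were acute unlesioned, acute lesioned, chronic unlesioned and chronic lesioned, with 3 libraries each. No group went without L-DOPA, so the lesion and the response to L-DOPA cannot be told apart within a comparison of lesioned with unlesioned tissue. The series' design text counts 3 mice per condition, while the study describes the unlesioned side as the control within a mouse.

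PRC2 places methyl groups on H3K27 through EZH1 or EZH2 and keeps developmental genes silent in mature cells. Canonical PRC1 binds the methylated lysine through a CBX protein, whereas RING1 and RNF2 in all PRC1 forms attach ubiquitin to histone H2A. PR-DUB removes that ubiquitin, and KDM6A and KDM6B remove the methyl groups of H3K27. In adult neurons PRC2 is known for holding genes of other cell types silent.

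Library totals ran from 87695043 to 173116525 counts summed over transcripts, and reads falling in several overlapping transcripts counted for each. Levels are given as CPM, the counts scaled to a common library total after TMM normalization. 1 library, chronic unlesioned 2, stood apart in genes of the choroid plexus, whose 4 markers summed to 466 CPM there and to at most 3.03 CPM in the other libraries. The summed level of 8 cortical markers, led by Slc17a7, was lower on the lesioned side in 3 of 3 same-numbered pairs after each treatment, although the groups overlapped, at 5.34 to 19.9 CPM on the lesioned against 15.7 to 34.1 CPM on the unlesioned side after acute and at 3.81 to 24.8 CPM against 7.93 to 44.6 CPM after chronic treatment. Of these markers, 1 (Neurod6) of 8 was lower in the acute lesion effect and 0 of 7 tested were called in the chronic one, while Rorb and Fezf2 had higher means on the acute lesioned side. The 10 markers of medium spiny neurons, the main cell type of the striatum, were present in every group, with sums from 1540 to 2270 CPM, but 9 of them were called in the acute lesion effect (5 higher and 4 lower) and 4 in the chronic one (3 higher and 1 lower). The dopamine receptor gene Drd1a was lower in both, with acute means of 66.6 CPM on the unlesioned and 13.5 CPM on the lesioned side. In such bulk tissue, fewer cells of a type and less RNA per cell cannot be told apart.

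All 35 genes had reads in every library, from 10 counts at the lowest to 14940 at the highest, and all were tested in every comparison. Of these, 32 reached a mean of 1 CPM. Phf19, Pcgf1 and Cbx2 stayed below it, with mean levels of 0.144, 0.754 and 0.808 CPM. The coefficient of variation between the libraries of a group had a median of 6.48% over genes and groups. Per kilobase of transcript and averaged over the 12 libraries, Cbx6 was the most abundant at 15.7 CPM per kb, followed by Rbbp7 at 9.73, Bap1 at 7.68 and Yaf2 at 6.61 CPM per kb. Kdm6b, whose level differed most between the sides, stood at 7.53 and 10.3 CPM per kb in acute and chronic lesioned tissue, above Yaf2 in both and above Bap1 in the latter, and at 1.22 and 1.05 CPM per kb in acute and chronic unlesioned tissue. The least abundant were Phf19 at 0.0385, Cbx2 at 0.216 and Ezh2 at 0.421 CPM per kb. Of the PRC2 methyltransferases, Ezh1 stood at 3.11 CPM per kb, well above Ezh2.

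**Figure D1:**
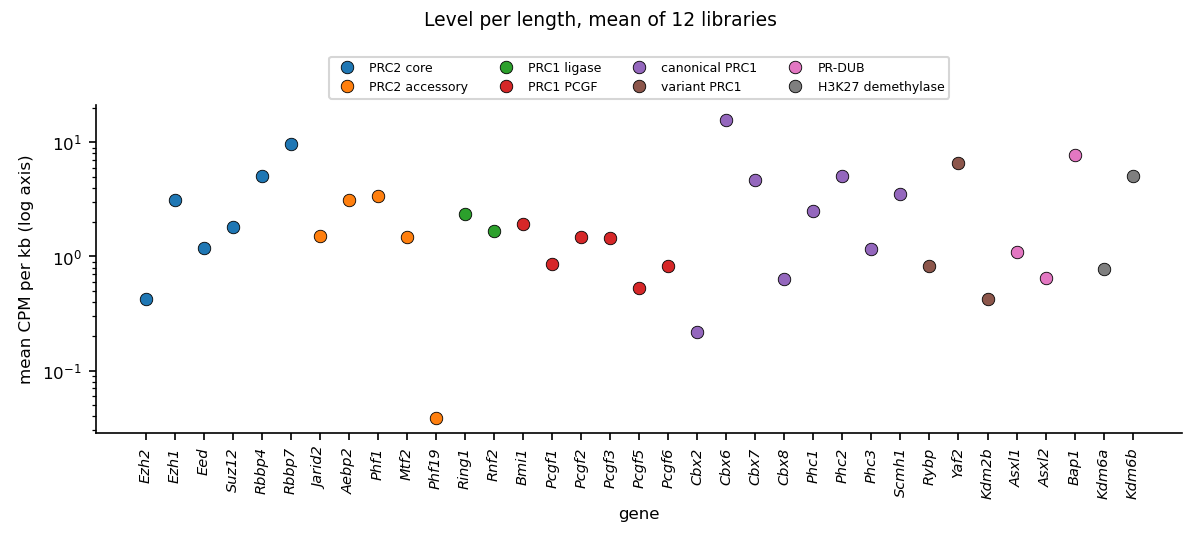
Mean level per kilobase of transcript over 12 libraries (y axis, CPM per kb, log axis) for each of the 35 genes (x axis), coloured by complex. Cbx6 lies highest at 15.7 CPM per kb and Phf19 lowest at 0.0385 CPM per kb.

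The comparisons asked how the lesioned side differed from the unlesioned side after acute and after chronic L-DOPA, how chronic differed from acute treatment on each side, and whether the lesion effect changed between treatments. They share libraries, so their results are not independent of each other. A gene was said to rise or fall at an adjusted p under 0.05 by edgeR's quasi-likelihood test, adjusted by the Benjamini-Hochberg method over all transcripts. All log2 fold changes and adjusted p-values that follow come from this test unless another is named. The strongest lesion effect of the group was that of Kdm6b, which rose on the lesioned side 6.21-fold after acute and 9.80-fold after chronic L-DOPA. After acute treatment 4 genes rose (Kdm6b, Rbbp7, Ezh2 and Cbx8) and 2 fell (Cbx6 and Asxl2). These 6 of 35 compare with 15.3% of all 20402 genes called in that comparison (8.16% higher and 7.16% lower) and with 19.9% of genes of at least 1 CPM. In this comparison 3 of 7 astrocyte, 3 of 7 microglial and 2 of 8 oligodendrocyte markers also rose. Astrocyte sums were 706 to 888 CPM on the lesioned against 635 to 692 CPM on the unlesioned side, microglial sums 79.1 to 93.1 against 70.7 to 73.9 CPM, and oligodendrocyte sums 2142 to 3547 against 2118 to 2363 CPM, which overlapped but were higher on the lesioned side in 3 of 3 same-numbered pairs. The part of these markers in the lesion effects was not tested. The group median of the log2 fold change in the acute comparison was 0.026, against 0.015 over all genes. After chronic treatment 5 genes rose (Kdm6b, Rbbp7, Cbx8, Scmh1 and Yaf2) and 5 fell (Ezh1, Jarid2, Phf1, Pcgf5 and Cbx7), against a background of 13.7% (8.46% higher and 5.2% lower) and of 17.3% at 1 CPM or more, with a group median of -0.040 and a median over all genes of -0.015. Of the 10, 5 changed by at least 1.5 fold (7.19% of all genes), whereas only Kdm6b did so after acute treatment (4.79% of all genes). Of the glial markers 1 of 7 astrocyte markers rose after chronic treatment, with sums of 737 to 769 CPM against 634 to 723 CPM, and 0 of 7 microglial and 0 of 8 oligodendrocyte markers were called. Oligodendrocyte sums were lower and microglial sums higher on the lesioned side in 3 of 3 same-numbered pairs. Endothelial and medium spiny neuron sums were higher on that side in 3 of 3 pairs after each treatment, with 0 of 6 endothelial markers called.

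Between the lesioned sides, 7 genes were higher after chronic than after acute treatment (Kdm6b, Rbbp7, Pcgf3, Cbx6, Phc2, Scmh1 and Asxl2) and 6 were lower (Jarid2, Phf1, Cbx2, Cbx7, Kdm2b and Kdm6a), against a background of 25.6% (12.5% higher and 13.1% lower) and of 31.5% at 1 CPM or more. Of these 13, only Phf1 differed by 1.5 fold or more, as did 11.4% of all genes. In the same comparison all 8 oligodendrocyte markers were lower after chronic treatment, with sums of 1176 to 2130 CPM against 2142 to 3547 CPM, and so were 5 of 7 microglial markers, with sums of 51.1 to 63.5 CPM against 79.1 to 93.1 CPM. There 3 of 7 astrocyte and 2 of 7 cortical markers tested were also lower, and of the medium spiny neuron markers 2 were higher and 3 lower. Their part in these results was not tested. Between the unlesioned sides 0 of 35 genes were called by edgeR, against a background of 3.07% and of 3.96% at 1 CPM or more, while 9 had an unadjusted p under 0.05, as did 22.8% of all genes, and DESeq2 called 1, Jarid2. Of the markers, 3 of 7 microglial, 2 of 7 astrocyte and 1 of 10 medium spiny neuron markers were lower after chronic treatment there, and their part was not tested. The lesion effect itself changed between treatments for 5 genes, upwards for Kdm6b and Scmh1 and downwards for Jarid2, Phf1 and Cbx7, against a background of 5.1% (3.53% higher and 1.56% lower) and of 7.3% at 1 CPM or more. Of these 5, 4 changed by at least 1.5 fold, as did 3.28% of all genes. In all, 18 of the 35 genes were called in at least 1 of these 5 fits, and 17 in none, against 38.1% of all 19253 genes tested in each fit and 47.2% of those of at least 1 CPM called in at least 1. These counts rest on the transcript used for each gene. Where it was not called, other transcripts were for Rbbp4 in the acute, Kdm6a and Kdm2b in the chronic, Cbx8 and Ezh1 in the lesioned and Jarid2 in the unlesioned comparison, and for Phc2 and Rbbp7 in the change. Groups of libraries did not overlap for 16, 18, 22 and 8 of the 35 genes in the acute, chronic, lesioned and unlesioned comparisons. The same held for 35%, 32.3%, 42.1% and 26.4% of all genes.

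**Figure D2:**
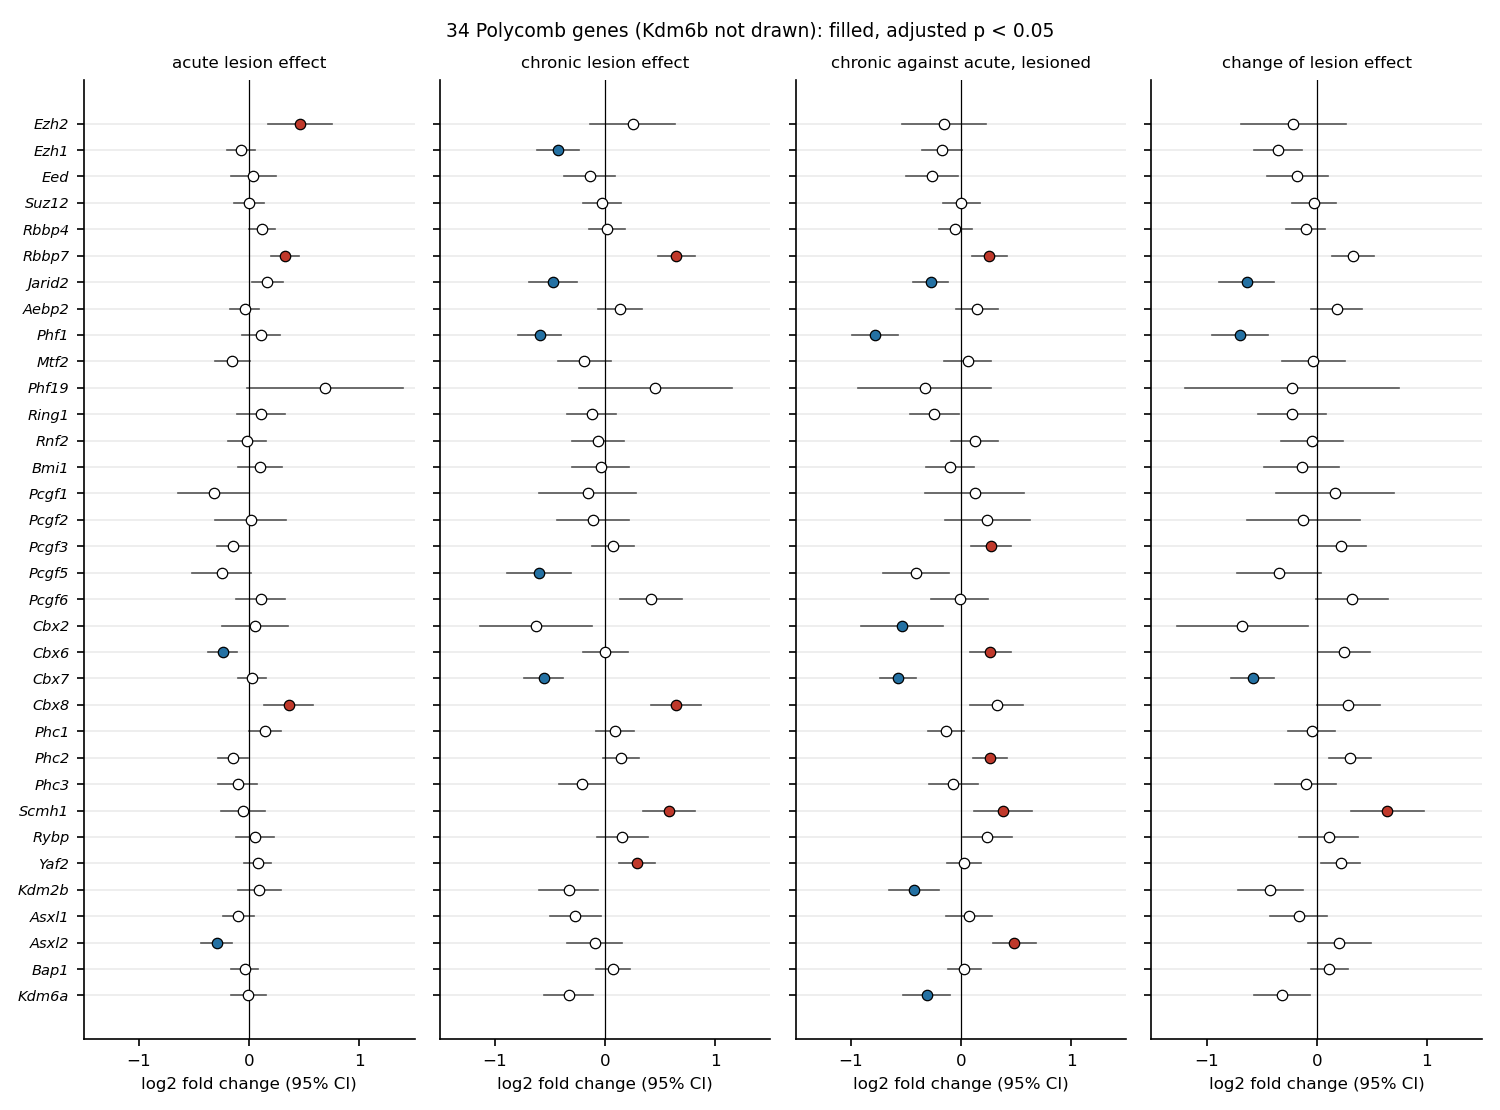
Log2 fold change with its 95% confidence interval (x axis) for 34 of the genes (y axis) in 4 panels (acute lesion effect, chronic lesion effect, chronic against acute on the lesioned side, and change of the lesion effect), filled red or blue where the gene rose or fell at an adjusted p under 0.05. Kdm6b is not drawn, since its lesion effects of 2.63 and 3.29 lie beyond the axis. Phf1 and Cbx7 are filled blue in all but the acute panel, whereas Rbbp7 is filled red in all but the panel of the change.

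Promoter sequence is shown for 5 of the genes whose chronic lesion effect was called under every alternative tried, from the RefSeq promoter table (GRCm38.p6, 250 bases before to 50 bases after the start). The first 3 genes fell and the last 2 rose. The stretches are Cbx7 at chr15:79932597-79932896, minus strand, 33 CpG, Phf1 at chr17:26932877-26933176, plus strand, 24 CpG, Jarid2 at chr13:44731021-44731320, plus strand, 23 CpG, Rbbp7 at chrX:162760122-162760421, plus strand, 38 CpG, and Cbx8 at chr11:119040864-119041163, minus strand, 24 CpG. Capitals mark CpG dinucleotides, the letters recognised by the CXXC domain of KDM2B, a PRC1 partner.
Cbx7: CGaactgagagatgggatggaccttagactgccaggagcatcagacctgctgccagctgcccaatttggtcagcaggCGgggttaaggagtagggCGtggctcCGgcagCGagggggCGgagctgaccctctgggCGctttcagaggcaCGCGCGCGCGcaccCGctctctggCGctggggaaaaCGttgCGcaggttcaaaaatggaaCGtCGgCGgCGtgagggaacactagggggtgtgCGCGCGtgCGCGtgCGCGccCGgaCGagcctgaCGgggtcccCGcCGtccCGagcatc
Phf1: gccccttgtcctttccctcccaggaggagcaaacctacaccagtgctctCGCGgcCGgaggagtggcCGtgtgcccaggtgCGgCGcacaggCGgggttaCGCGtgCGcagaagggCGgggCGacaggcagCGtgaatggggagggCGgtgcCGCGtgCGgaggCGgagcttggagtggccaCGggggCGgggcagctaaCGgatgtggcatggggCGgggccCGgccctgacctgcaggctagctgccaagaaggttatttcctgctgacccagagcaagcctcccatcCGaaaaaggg
Jarid2: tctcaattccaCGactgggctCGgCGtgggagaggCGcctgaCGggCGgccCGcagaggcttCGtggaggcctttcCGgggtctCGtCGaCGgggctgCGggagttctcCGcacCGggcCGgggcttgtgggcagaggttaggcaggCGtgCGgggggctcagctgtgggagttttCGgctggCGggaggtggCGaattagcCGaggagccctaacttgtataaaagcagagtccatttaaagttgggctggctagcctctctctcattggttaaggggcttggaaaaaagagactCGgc
Rbbp7: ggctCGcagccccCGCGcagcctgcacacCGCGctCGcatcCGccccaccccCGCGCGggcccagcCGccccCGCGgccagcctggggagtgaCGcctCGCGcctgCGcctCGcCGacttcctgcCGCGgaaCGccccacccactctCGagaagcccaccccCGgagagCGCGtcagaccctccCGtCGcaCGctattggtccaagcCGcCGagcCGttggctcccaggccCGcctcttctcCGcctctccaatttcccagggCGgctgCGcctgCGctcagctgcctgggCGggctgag
Cbx8: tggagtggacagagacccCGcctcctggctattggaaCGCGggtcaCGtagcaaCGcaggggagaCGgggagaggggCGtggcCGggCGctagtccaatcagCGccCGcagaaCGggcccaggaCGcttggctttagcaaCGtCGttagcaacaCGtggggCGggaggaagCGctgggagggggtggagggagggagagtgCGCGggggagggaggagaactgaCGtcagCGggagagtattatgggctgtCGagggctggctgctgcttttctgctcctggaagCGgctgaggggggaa
Of the 35 genes 30 matched the table, with 42 entries whose median was 24 CpG, against 7 over all 32851 promoters. Searched on both strands, TGACGTCA, the full cyclic AMP response element, was in 1 of the 42 entries, that of Cbx8, and in 1.79% of all promoters. The shorter TGACG, which is part of the full element, was in 17 of 42 entries and in 20.8% of all promoters. TGANTCA, the letters of the AP-1 element, were in 1 of 42 entries and in 7.81% of all. These matches describe the letters only. Kdm6b, Cbx2, Pcgf1, Rybp and Yaf2 had no entry.

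Among the H3K27 demethylases, Kdm6b (chr11:69212010-69227177 in mm9, minus strand, transcript NM_001017426) had the largest change of the group in both lesion effects. Its level was 7.13, 8.55 and 8.67 CPM in the acute unlesioned libraries and 48.3, 48.2 and 53.9 CPM in the acute lesioned ones. After chronic treatment it was 7.59, 6.30 and 7.10 CPM on the unlesioned side and 66.4, 73.8 and 65.3 CPM on the lesioned side. Every lesioned library lay above every unlesioned one, and every chronic lesioned library above every acute lesioned one, while the unlesioned groups overlapped. The log2 fold change of the lesion was 2.63 ± 0.084 (SE) after acute treatment (adjusted p = 1.15e-09) and 3.29 ± 0.10 (SE) after chronic treatment (adjusted p = 1.86e-08). Among genes of at least 1 CPM these rises ranked 27 of 12797 and 34 of 12796. Between the lesioned sides the gene was 1.37-fold higher after chronic treatment (log2 0.45 ± 0.081 (SE), adjusted p = 0.00325). The lesion effect grew by 0.66 ± 0.13 (SE) on the log2 scale (adjusted p = 0.00744). All 7 transcripts of Kdm6b were called in both lesion effects, from 2.54 to 3.17 after acute and from 3.21 to 3.37 after chronic treatment. Its exons share 286 bases with 1700064E03Rik on the other strand, and the strand used in counting is not given in the sources used here. No alternative tried ended any of these calls.

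Kdm6a (chrX:17739701-17857062), its X-linked relative, was called in neither lesion effect by the transcript used. It measured 5.12, 4.82 and 4.62 CPM in acute unlesioned and 5.01, 4.63 and 4.78 CPM in acute lesioned libraries, with overlapping groups. After chronic treatment it measured 5.02, 4.53 and 5.08 CPM on the unlesioned and 4.19, 3.97 and 3.49 CPM on the lesioned side, without overlap. The acute log2 fold change was -0.00929 ± 0.073 (SE), with a 95% interval of -0.17 to 0.15. The chronic one was -0.33 ± 0.10 on the log2 scale (SE, adjusted p = 0.0601), which passed with the replicate number as a block (adjusted p = 0.0219), with all 12 libraries in the fit (0.0136), with the GC-length trend removed (0.0494) and with the block and the trend removed (0.0182). In that comparison 3 of its 12 transcripts tested were called lower, among them the RefSeq transcript NM_009483 (log2 -0.35, adjusted p = 0.0494). On the lesioned side Kdm6a was 1.24-fold lower after chronic treatment (adjusted p = 0.0387), a call that was lost without acute lesioned 1, 2 or 3 or chronic lesioned 3 (adjusted p = 0.0791 to 0.130, each left out in turn) and with DESeq2 or 1 transcript per gene (adjusted p = 0.0512 to 0.0620).

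**Figure D3:**
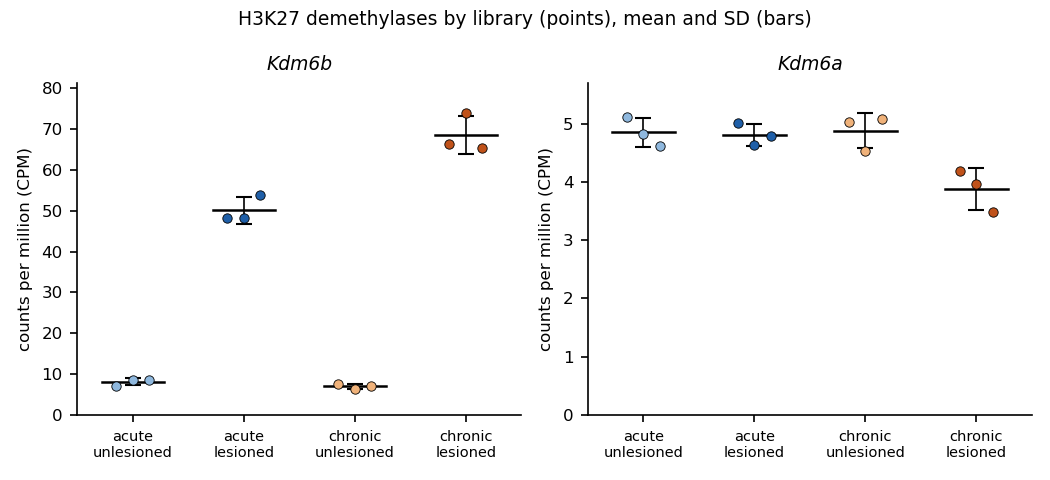
Level in CPM (y axis, from 0) of Kdm6b and Kdm6a in each of 12 libraries (points) by group (x axis), with the group mean and SD as bars. Kdm6b lies at 48.2 to 73.8 CPM in lesioned and at 6.30 to 8.67 CPM in unlesioned libraries, whereas Kdm6a lies between 3.49 and 5.12 CPM.

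In the PRC2 core, the histone chaperone Rbbp7 rose in both lesion effects, Ezh2 rose after acute and Ezh1 fell after chronic treatment, and Eed, Suz12 and Rbbp4 were called in none. Rbbp7 (chrX:159198304-159217022) also serves other histone-modifying complexes. It measured 18.8, 18.6 and 19.1 CPM in acute unlesioned and 22.3, 24.6 and 23.6 CPM in acute lesioned libraries. It measured 19.1, 17.3 and 17.5 CPM in chronic unlesioned and 28.4, 27.7 and 28.3 CPM in chronic lesioned libraries. The lesioned libraries were above the unlesioned ones in both pairs of groups, and the chronic lesioned libraries were highest of all. The log2 fold change was 0.32 ± 0.058 (SE) after acute (adjusted p = 0.00388) and 0.65 ± 0.076 (SE) after chronic treatment (1.56-fold, adjusted p = 0.000323), and neither call was lost under any alternative. Of its 11 transcripts, 10 rose in the former and 11 in the latter. The difference between the lesioned sides was 0.26 ± 0.071 on the log2 scale (SE, adjusted p = 0.0239), a call that was lost without acute lesioned 1, 2 or 3 or chronic lesioned 1 or 3 (adjusted p = 0.0529 to 0.102, each left out in turn). The change of its lesion effect was 0.33 ± 0.089 on the log2 scale (SE, adjusted p = 0.0503), which passed with DESeq2 (adjusted p = 0.00763), its size factors (0.0491), 1 transcript per gene (0.0398), the replicate number as a block (0.0157), genes of known GC content (0.00870 to 0.0345 over 3 such fits) and without chronic unlesioned 1 (0.0351) or chronic lesioned 2 (0.0402). Its exons share 174 bases with Txlng on the other strand.

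Ezh2 (chr6:47480275-47545029), the methyltransferase of dividing cells, was low throughout. It measured 0.957, 1.01 and 0.900 CPM in acute unlesioned and 1.22, 1.58 and 1.16 CPM in acute lesioned libraries. After chronic treatment it measured 1.12, 0.893 and 0.974 CPM on the unlesioned and 1.34, 1.29 and 0.921 CPM on the lesioned side. The acute groups did not overlap, and the chronic ones did. Its acute rise was 0.46 ± 0.13 on the log2 scale (SE, adjusted p = 0.0416), a call that was lost without acute unlesioned 1, 2 or 3 or acute lesioned 2 (adjusted p = 0.0789 to 0.151, each left out in turn) and with DESeq2, 1 transcript per gene, all 12 libraries in the fit or genes of known GC content (adjusted p = 0.0508 to 0.0852). In the acute comparison 4 of its 18 transcripts were called, with log2 values from -0.14 to 0.82 over all 18. The chronic value was 0.25 ± 0.17 on the log2 scale (SE), with a 95% interval of -0.13 to 0.63.

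Ezh1 (chr11:101052429-101087764), the methyltransferase that prevails in cells that no longer divide, measured 13.3, 13.1 and 13.4 CPM in acute unlesioned and 13.2, 12.4 and 12.2 CPM in acute lesioned libraries. It measured 16.3, 14.4 and 14.5 CPM in chronic unlesioned and 11.9, 10.3 and 11.4 CPM in chronic lesioned libraries. The chronic lesioned libraries were below every library of the other groups, and the acute groups overlapped. Its chronic fall was -0.43 ± 0.087 on the log2 scale (SE, adjusted p = 0.0103), seen in 9 of 17 transcripts, and was lost without chronic unlesioned 1 (adjusted p = 0.0513). The acute value was -0.072 ± 0.059 on the log2 scale (SE). The change of the lesion effect was -0.35 ± 0.10 on the log2 scale (SE, adjusted p = 0.0668), which passed with DESeq2 (adjusted p = 0.0345) and under a block on the replicate number, alone (0.0131) or with the GC-length trend removed (0.0138).

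The scaffold Suz12 varied little. It measured 7.78, 8.15 and 7.65 CPM in acute unlesioned, 7.44, 8.11 and 7.96 CPM in acute lesioned, 8.23, 7.65 and 8.11 CPM in chronic unlesioned and 8.06, 7.94 and 7.55 CPM in chronic lesioned libraries, and all groups overlapped. Its lesion effects had 95% intervals of -0.14 to 0.14 and -0.20 to 0.15 on the log2 scale. Eed, which reads the methyl mark, measured 2.52, 2.68 and 2.50 CPM in acute unlesioned, 2.87, 2.53 and 2.46 CPM in acute lesioned, 2.62, 2.34 and 2.30 CPM in chronic unlesioned and 2.28, 2.22 and 2.08 CPM in chronic lesioned libraries. The chronic lesioned libraries of Eed were lowest of all. Its value between the lesioned sides was -0.26 ± 0.11 on the log2 scale (SE, adjusted p = 0.0986), which passed with all 12 libraries in the fit (adjusted p = 0.0495).

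Of the 5 PRC2 accessory genes, Jarid2 and Phf1 fell on the lesioned side after chronic treatment, none was called after acute treatment, and Aebp2, Mtf2 and Phf19 were called in none of the 5 fits. Phf1 (chr17:27070094-27074834), a Polycomb-like protein that binds methylated lysine 36 of H3, measured 8.89, 9.73 and 9.72 CPM in acute unlesioned and 9.29, 9.85 and 11.3 CPM in acute lesioned libraries. It measured 9.48, 8.66 and 8.64 CPM in chronic unlesioned and 5.86, 5.51 and 6.34 CPM in chronic lesioned libraries. Only the chronic lesioned group stood apart, with every library below those of the other groups. The chronic fall was -0.59 ± 0.088 on the log2 scale (SE, 1.51-fold lower, adjusted p = 0.00153), and the difference between the lesioned sides was -0.78 ± 0.10 (SE, 1.71-fold lower, adjusted p = 0.000331). Its lesion effect after acute treatment was 0.11 ± 0.078 on the log2 scale (SE), and the change between treatments was -0.70 ± 0.12 (SE, adjusted p = 0.00291). All 9 of its transcripts were called in these 3 fits, and no alternative ended a call.

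Jarid2 (chr13:44826640-45017006), a cofactor that recruits PRC2 and has no demethylase activity, lay above the unlesioned side after acute and below it after chronic treatment. It measured 8.95, 8.37 and 7.97 CPM in acute unlesioned and 9.47, 9.73 and 9.13 CPM in acute lesioned libraries. It measured 10.6, 9.68 and 12.2 CPM in chronic unlesioned and 7.63, 8.05 and 7.71 CPM in chronic lesioned libraries. None of the 4 pairs of groups compared overlapped. The acute value was 0.17 ± 0.066 on the log2 scale (SE, adjusted p = 0.123), called with the replicate number as a block, alone (adjusted p = 0.0453) or with the GC-length trend removed (0.0495). The chronic fall was -0.47 ± 0.10 on the log2 scale (SE, adjusted p = 0.0102), kept under every alternative tried. The change between treatments was -0.64 ± 0.12 on the log2 scale (SE, adjusted p = 0.00519), with all 6 transcripts called. Between the lesioned sides it was -0.27 ± 0.074 on the log2 scale (SE, adjusted p = 0.0211), a call that was lost without acute lesioned 1 or 2 or chronic lesioned 1 or 3 (adjusted p = 0.0576 to 0.0977, each left out in turn). Between the unlesioned sides it was 0.36 ± 0.090 on the log2 scale (SE, adjusted p = 0.0590), called by DESeq2 (adjusted p = 0.0140), without the filter on low counts (0.0374), with all 12 libraries in the fit (0.0327) and without chronic unlesioned 2 (0.00770). In that comparison 4 of its 6 transcripts were called by edgeR, among them the RefSeq transcript NM_021878 with a log2 fold change of 0.39 (adjusted p = 0.0369).

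**Figure D4:**
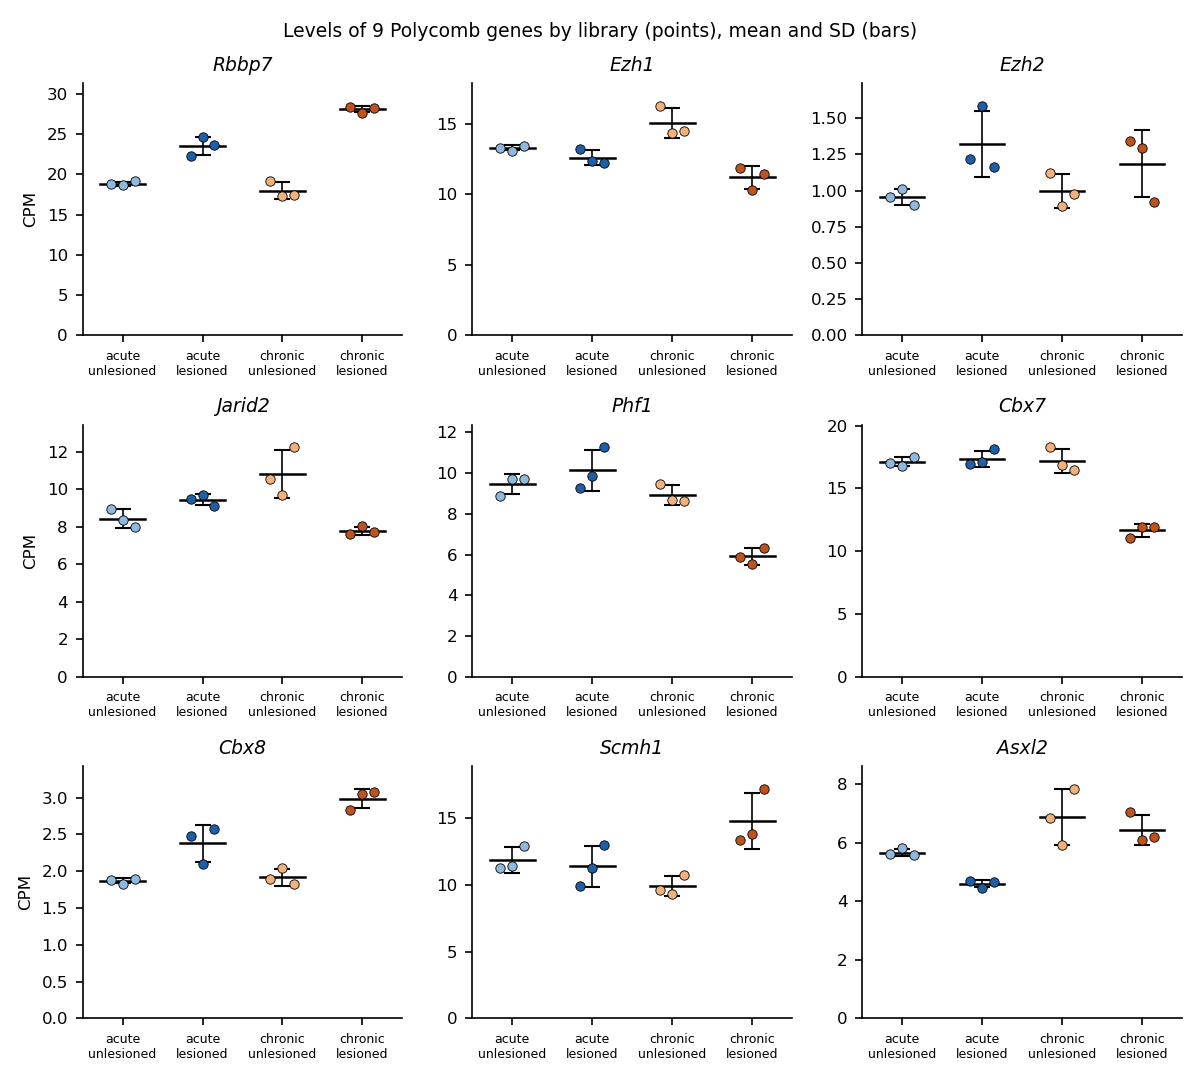
Level in CPM (y axes, from 0) of 9 genes in each library (points) by group (x axes), with the group mean and SD as bars. Phf1 and Cbx7 are lower in the chronic lesioned group alone, Rbbp7 and Cbx8 are higher in both lesioned groups, and Jarid2 differs in direction between acute and chronic treatment.

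Both PRC1 ligases were called in none of the 5 fits. Ring1 measured 4.28, 5.54 and 4.75 CPM in acute unlesioned, 4.87, 5.07 and 5.71 CPM in acute lesioned, 5.10, 4.49 and 4.82 CPM in chronic unlesioned and 3.99, 4.51 and 4.72 CPM in chronic lesioned libraries. Rnf2 measured 5.36, 4.72 and 4.54 CPM in acute unlesioned, 4.81, 4.82 and 4.80 CPM in acute lesioned, 6.01, 5.15 and 5.30 CPM in chronic unlesioned and 5.86, 5.21 and 4.68 CPM in chronic lesioned libraries. Lesioned and unlesioned libraries of both genes overlapped. The 95% intervals of the chronic lesion effect were -0.34 to 0.10 for Ring1 and -0.30 to 0.18 for Rnf2. Ring1 passed in the chronic lesion effect in 1 alternative, the replicate block with the GC-length trend removed over genes of known GC content (log2 -0.24, adjusted p = 0.0489).

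The PCGF proteins pair with a RING ligase and set the kind of PRC1. Of the 6, Bmi1, Pcgf1, Pcgf2 and Pcgf6 were not called. Bmi1, a PCGF of canonical PRC1 known from stem cells, measured 7.78, 6.16 and 6.40 CPM in acute unlesioned, 7.74, 7.30 and 6.71 CPM in acute lesioned, 7.94, 6.80 and 6.22 CPM in chronic unlesioned and 7.56, 6.82 and 6.00 CPM in chronic lesioned libraries, and all groups overlapped. Pcgf6 had a chronic value of 0.42 ± 0.13 on the log2 scale (SE, adjusted p = 0.0577), called with all 12 libraries in the fit (adjusted p = 0.0164) and under a block on the replicate number, alone (0.0304) or with the GC-length trend removed (0.0321). Pcgf5 (chr19:36530398-36533533), of variant PRC1, measured 2.20, 1.89 and 1.66 CPM in acute unlesioned and 1.75, 1.60 and 1.48 CPM in acute lesioned libraries. After chronic treatment it measured 1.84, 1.84 and 1.84 CPM on the unlesioned and 1.23, 1.38 and 1.04 CPM on the lesioned side, without overlap. Its fall of -0.60 ± 0.13 on the log2 scale (SE, adjusted p = 0.0142) was lost without chronic unlesioned 3 or chronic lesioned 3 (adjusted p = 0.0519 to 0.0551, each left out in turn). It rests on AK040647, a transcript of 1 exon, the only one called of 7 tested, of whose 3136 bases 285 lie within the Pcgf5 gene of GENCODE vM1 and the others downstream of it, and the RefSeq transcript NM_029508 had -0.28 (adjusted p = 0.392).

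Pcgf3 (chr5:108890251-108935995), also of variant PRC1, measured 11.5, 11.4 and 10.6 CPM in acute unlesioned and 10.4, 10.2 and 9.58 CPM in acute lesioned libraries. It measured 12.1, 11.6 and 11.0 CPM in chronic unlesioned and 13.2, 12.2 and 11.1 CPM in chronic lesioned libraries. The acute lesioned libraries were lowest of all. The lesioned sides differed by 0.27 ± 0.084 on the log2 scale (SE, adjusted p = 0.0378), a call that was lost without acute lesioned 1, 2 or 3 or chronic lesioned 1 (adjusted p = 0.0701 to 0.142, each left out in turn).

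Canonical PRC1 held members that moved in opposite directions. Of its CBX readers, Cbx8 rose in both lesion effects, Cbx7 fell after chronic treatment, and Cbx6 fell after acute treatment. Cbx7 (chr15:79746240-79763069) measured 17.0, 16.8 and 17.5 CPM in acute unlesioned and 16.9, 17.1 and 18.1 CPM in acute lesioned libraries. It measured 18.3, 16.9 and 16.5 CPM in chronic unlesioned and 11.1, 12.0 and 12.0 CPM in chronic lesioned libraries. Again only the chronic lesioned group stood apart, below all other libraries. The chronic fall was -0.56 ± 0.079 on the log2 scale (SE, 1.47-fold lower, adjusted p = 0.00113), the difference between the lesioned sides -0.57 ± 0.074 (SE, adjusted p = 0.000429) and the change of the lesion effect -0.58 ± 0.091 (SE, adjusted p = 0.00153). After acute treatment the 95% interval of its lesion effect was -0.10 to 0.15. All 9 transcripts were called in these 3 fits, and no alternative ended a call.

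Cbx8 (chr11:118897619-118902283) measured 1.89, 1.83 and 1.89 CPM in acute unlesioned and 2.47, 2.09 and 2.57 CPM in acute lesioned libraries. It measured 1.89, 2.04 and 1.82 CPM in chronic unlesioned and 2.84, 3.05 and 3.07 CPM in chronic lesioned libraries. Both lesioned groups lay above both unlesioned ones. The chronic rise was 0.64 ± 0.10 on the log2 scale (SE, 1.56-fold, adjusted p = 0.00252), kept under every alternative tried. The acute rise was 0.36 ± 0.10 on the log2 scale (SE, adjusted p = 0.0374), which was lost without acute unlesioned 1, 2 or 3 or acute lesioned 1 or 3 (adjusted p = 0.0853 to 0.104, each left out in turn) and with DESeq2 or the GC-length trend removed (adjusted p = 0.0537 to 0.0584). The RefSeq transcript NM_013926 had 0.16 in the acute comparison (adjusted p = 0.406) and was called in the chronic one (log2 0.56, adjusted p = 0.00954). On the lesioned side NM_013926 was higher after chronic treatment (log2 0.45, adjusted p = 0.0295), whereas the transcript used for Cbx8 had 0.33 ± 0.11 (SE, adjusted p = 0.0512) and passed in 5 alternatives (adjusted p = 0.0193 to 0.0490). Its neighbour Cbx2 (chr11:118884343-118892584) was low, at 0.826, 0.785 and 0.900 CPM in acute unlesioned and 0.750, 0.879 and 0.978 CPM in acute lesioned libraries. It measured 1.28, 0.701 and 0.806 CPM in chronic unlesioned and 0.558, 0.666 and 0.565 CPM in chronic lesioned libraries, the latter below all others. Its chronic lesion effect of -0.63 on the log2 scale was the lowest of the group but was not called. It passed with all 12 libraries in the fit (adjusted p = 0.0457), with the block and the GC-length trend removed (0.0456) and without chronic unlesioned 2 (0.0434). On the lesioned side, chronic against acute treatment gave Cbx2 -0.53 ± 0.17 on the log2 scale (SE, adjusted p = 0.0409), a call that was lost without acute lesioned 2 or 3 or chronic lesioned 1 or 3 (adjusted p = 0.107 to 0.132, each left out in turn) and with DESeq2, all 12 libraries in the fit or genes of known GC content (adjusted p = 0.0562 to 0.101). A block on the replicate number, alone or with the GC-length trend removed, also ended that call.

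Cbx6 (chr15:79654328-79664763), the most abundant gene of the group, measured 85.1, 85.5 and 95.4 CPM in acute unlesioned and 73.4, 75.3 and 75.5 CPM in acute lesioned libraries. It measured 88.5, 84.7 and 95.9 CPM in chronic unlesioned and 92.4, 80.3 and 97.1 CPM in chronic lesioned libraries. The acute lesioned libraries were below all others, and the chronic groups overlapped. Its acute fall was -0.24 ± 0.062 on the log2 scale (SE, adjusted p = 0.0244), which was lost without acute unlesioned 2 or 3 or acute lesioned 1 or 2 (adjusted p = 0.0542 to 0.0769, each left out in turn) and with all 12 libraries in the fit (adjusted p = 0.0663). In that comparison 3 of its 7 transcripts were called. The chronic against acute difference of lesioned tissue was 0.27 ± 0.084 on the log2 scale (SE, adjusted p = 0.0408), a call that was lost without acute lesioned 1, 2 or 3 or chronic lesioned 1 or 3 (adjusted p = 0.0816 to 0.130, each left out in turn). That call was also lost under a block on the replicate number, alone or with the GC-length trend removed. Its exons share 1175 bases with Npcd on the same strand, so reads of both genes could not be told apart there.

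Scmh1 (chr4:120077886-120202804), a SAM domain partner of PRC1, measured 11.3, 11.4 and 13.0 CPM in acute unlesioned and 9.95, 11.3 and 13.0 CPM in acute lesioned libraries. It measured 9.64, 9.32 and 10.8 CPM in chronic unlesioned and 13.4, 13.9 and 17.2 CPM in chronic lesioned libraries. The acute groups overlapped, whereas the chronic lesioned libraries were the highest of all. The chronic rise was 0.58 ± 0.11 on the log2 scale (SE, adjusted p = 0.00597), kept under every alternative tried, with 13 of 17 transcripts called. The change of the lesion effect was 0.64 ± 0.16 on the log2 scale (SE, adjusted p = 0.0293), a call that was lost without acute unlesioned 3, acute lesioned 1 or 2, chronic unlesioned 1 or 2 or chronic lesioned 3 (adjusted p = 0.0575 to 0.0854, each left out in turn). Chronic against acute lesioned tissue gave 0.38 ± 0.12 on the log2 scale (SE, adjusted p = 0.0393), a call that was lost without acute lesioned 1 or 2 or chronic lesioned 1 or 3 (adjusted p = 0.0525 to 0.143, each left out in turn).

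The polyhomeotic proteins PHC1, PHC2 and PHC3 polymerise through their SAM domains and compact chromatin. Phc2 (chr4:128331946-128430125) measured 19.4, 19.4 and 21.5 CPM in acute unlesioned and 18.1, 17.6 and 18.5 CPM in acute lesioned libraries. It measured 18.7, 19.8 and 20.1 CPM in chronic unlesioned and 21.1, 21.3 and 22.5 CPM in chronic lesioned libraries. The lesioned side was below the unlesioned after acute and above it after chronic treatment, without overlap. Neither lesion effect was called, with log2 values of -0.15 after acute and 0.15 after chronic treatment. The acute one passed with the GC-length trend removed, alone (adjusted p = 0.00868) or with the block (0.00498). On the lesioned side, chronic against acute treatment gave 0.26 ± 0.071 on the log2 scale (SE, adjusted p = 0.0222), a call that was lost without acute lesioned 1 or 2 or chronic lesioned 1 or 3 (adjusted p = 0.0509 to 0.0934, each left out in turn). The change of its lesion effect was 0.30 ± 0.090 on the log2 scale (SE, adjusted p = 0.0767), which passed with DESeq2 (adjusted p = 0.0289), the replicate number as a block (0.0204), the GC-length trend removed (0.0144) and both (0.0105). Phc1 and Phc3 were called in no comparison, with chronic lesion effects of 0.091 ± 0.080 on the log2 scale (SE) and -0.21 ± 0.094 (SE).

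Among the partners of variant PRC1, Yaf2 (chr15:93114264-93167366), an adaptor of RING1 and RNF2, measured 15.2, 14.9 and 15.9 CPM in acute unlesioned and 16.4, 16.0 and 15.9 CPM in acute lesioned libraries. It measured 13.5, 13.4 and 13.4 CPM in chronic unlesioned and 16.5, 15.7 and 17.1 CPM in chronic lesioned libraries. The chronic unlesioned libraries were the lowest. The chronic rise of 0.29 ± 0.073 on the log2 scale (SE, adjusted p = 0.0268) was seen in all 7 transcripts and was lost without chronic unlesioned 1, 2 or 3 or chronic lesioned 1 or 3 (adjusted p = 0.0656 to 0.0955, each left out in turn). Its relative Rybp was not called, with a chronic value of 0.16 ± 0.11 on the log2 scale (SE). Kdm2b (chr5:123320677-123439101), which ties variant PRC1 to unmethylated CpG, measured 2.31, 2.17 and 2.32 CPM in acute unlesioned and 2.32, 2.52 and 2.40 CPM in acute lesioned libraries. It measured 2.05, 2.15 and 2.55 CPM in chronic unlesioned and 1.84, 1.84 and 1.70 CPM in chronic lesioned libraries, the latter below all others. Between the lesioned sides it was -0.42 ± 0.10 on the log2 scale (SE, adjusted p = 0.0138), a call that was lost without acute lesioned 2 (adjusted p = 0.0624).

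In PR-DUB, the deubiquitinase Bap1 was called in no comparison. It measured 26.7, 26.5 and 27.6 CPM in acute unlesioned, 26.4, 26.7 and 25.1 CPM in acute lesioned, 25.8, 24.9 and 25.4 CPM in chronic unlesioned and 26.4, 26.4 and 27.2 CPM in chronic lesioned libraries, all within a narrow range. Asxl2 (chr12:3426884-3506849), a cofactor of BAP1, measured 5.60, 5.80 and 5.58 CPM in acute unlesioned and 4.68, 4.45 and 4.64 CPM in acute lesioned libraries. It measured 6.84, 5.92 and 7.84 CPM in chronic unlesioned and 7.04, 6.08 and 6.21 CPM in chronic lesioned libraries. The acute lesioned libraries were below all others, and the chronic groups overlapped. The acute fall was -0.30 ± 0.066 on the log2 scale (SE, adjusted p = 0.0130), which was lost without acute unlesioned 2 or acute lesioned 2 (adjusted p = 0.0527 to 0.0647, each left out in turn) and with all 12 libraries in the fit (adjusted p = 0.0643). In the acute comparison 8 of its 20 transcripts tested were called. The chronic against acute difference of lesioned tissue was 0.49 ± 0.089 on the log2 scale (SE, 1.40-fold higher, adjusted p = 0.00353), kept under every alternative tried. Asxl1 had a chronic value of -0.27 ± 0.10 on the log2 scale (SE, adjusted p = 0.129), called with all 12 libraries in the fit (adjusted p = 0.0434) and under a block on the replicate number, alone (0.0235) or with the GC-length trend removed (0.0169).

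**Figure D5:**
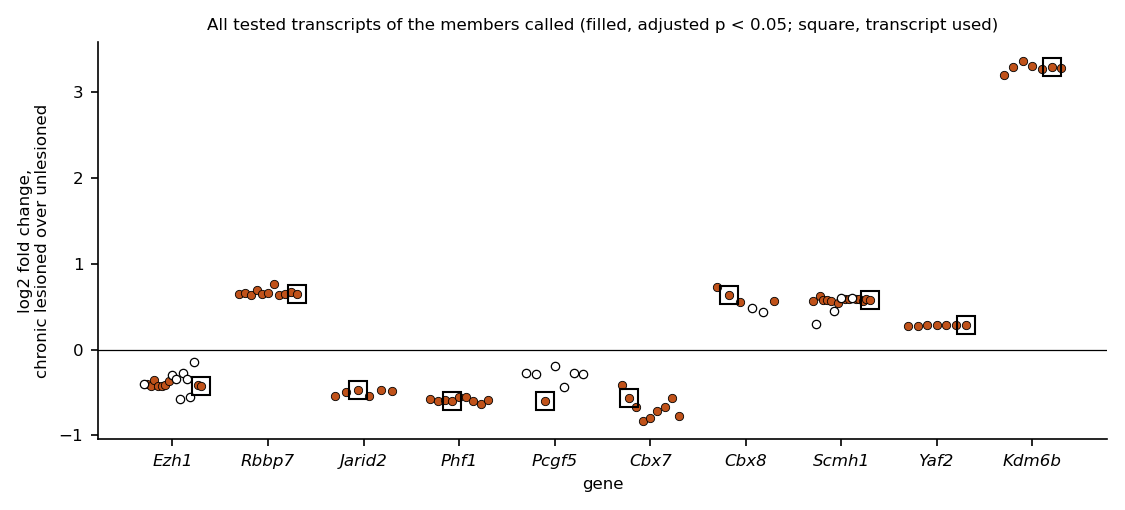
Log2 fold change of chronic lesioned over chronic unlesioned tissue (y axis) for every tested transcript of the 10 genes called in that comparison (x axis), filled where the adjusted p was under 0.05, with a square around the transcript used. All transcripts of Kdm6b, Rbbp7, Jarid2, Phf1, Cbx7 and Yaf2 are called, whereas Pcgf5 has 1 of 7.

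Genes that work beside these complexes were taken from 3 further lists. Of 38 Polycomb-associated genes tested, 2 rose and 6 fell in the acute and 2 rose and 2 fell in the chronic lesion effect (21.1% and 10.5% called, against 15.3% and 13.7% of all genes), and 6 were higher and 2 lower after chronic than after acute treatment on the lesioned side (21.1%, against 25.6%). Bcor, a corepressor of variant PRC1, rose in both, by 0.45 ± 0.10 and 0.70 ± 0.14 (SE) on the log2 scale. Foxk1, a forkhead partner of BAP1, fell in both, with log2 values of -0.27 ± 0.065 and -0.44 ± 0.090 (SE). Of 5 other H2A deubiquitinases, Usp16 rose and Usp3 fell after acute treatment, with log2 values of 0.28 ± 0.066 and -0.37 ± 0.092 (SE), and none of the 5 was called after chronic treatment. On the lesioned side 2 of the 5 were higher after chronic treatment. Of 21 genes of a Trithorax list, which holds genes of H3K4 and H3K36 methylation and the acetyltransferase genes Crebbp and Ep300 (both not called), 1 rose and 2 fell in the acute lesion effect, and 4 fell in the chronic one (14.3% and 19% called). The latter were Ash1l, Setd2, Kdm5a and Kdm5c, with log2 values from -0.53 to -0.28. On the lesioned side 1 of the 21 was higher and 1 lower after chronic than after acute treatment.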

How the data were processed

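TruSeq libraries were run on a Genome Analyzer II. Reads were mapped to mm9 in Genomatix software, and the authors deposited the raw count of reads on each transcript, not normalized. The submitters' notes name DESeq, whose comparison columns were not used, and 48 other per-sample columns were not used either. Of 189660 transcripts, 296 name no gene and held 0.0485% of counts; they were left out. Groups came from the sample titles. Tests were run in R 4.3.3 with edgeR 4.0.16, which calls limma 3.58.1. Low counts were removed by filterByExpr, libraries scaled by TMM, and glmQLFit and glmQLFTest applied to the 6 libraries of a comparison, or all 12 for the change of lesion effect, without a block. P-values were adjusted by Benjamini-Hochberg over all transcripts, and a call needed an adjusted p under 0.05. Standard errors came from the fold change and its F statistic. Each gene was read from its transcript with the highest mean CPM. Values in every library are given for members called in any fit and for the core enzymes and scaffolds, and the others by counts and ranges. The members and lists were chosen with earlier results of these data known.

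The replicate numbers were checked for pairing. Deviations from group means over 12794 genes correlated at 0.478, 0.444 and 0.390 for same-numbered acute libraries of the lesioned and unlesioned side and at 0.519, 0.566 and 0.153 for chronic ones. The numbers thus paired the acute libraries and numbers 1 and 2 of the chronic ones. Chronic unlesioned 3 correlated as highly with chronic lesioned 1 (0.155), so the pairing of number 3 in the chronic block is uncertain. Between treatments same-numbered libraries correlated at -0.163 to 0.249, without a common sign, and no pairing was taken there. Alternatives were DESeq2 1.42.0, its size factors, no filter, 1 transcript per gene, all 12 libraries, the replicate block, each library left out, and, chosen after seeing the data, removal of a trend with GC content and length (GENCODE vM1). The fits were tested on simulated data. A minimum number of recovered changes, set at first as the criterion, was not met, was lowered and was then dropped after the results were seen, which left a criterion on the bias of effect sizes alone. Effect sizes were recovered with little bias and most 2-fold changes were called, but few of the smallest ones in the change of lesion effect. False calls made up a larger share than the nominal one in every simulated fit, most with DESeq2, so calls near the threshold are less certain than their adjusted p states. For the same comparison the share was larger with the block than without it. The simulated libraries shared no replicate effect, so they cannot show how the block behaves on paired libraries. Only the acute lesion effect and the change of lesion effect were simulated. Tables were made with pandas 2.3.3 and numpy 2.4.6 and figures with matplotlib 3.10.9, in Python 3.11.15.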

Additional observations from a re-analysis of the deposited data

Results flagged for a closer look

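For 5 genes the lesion effect differed between acute and chronic L-DOPA by the interaction term of the edgeR fit over all 12 libraries. The change on the log2 scale was 0.66 for Kdm6b and 0.64 for Scmh1, and -0.64 for Jarid2, -0.70 for Phf1 and -0.58 for Cbx7. The calls of Kdm6b, Jarid2, Phf1 and Cbx7 were kept under every alternative tried, whereas that of Scmh1 was lost without acute unlesioned 3, acute lesioned 1 or 2, chronic unlesioned 1 or 2, or chronic lesioned 3, each left out in turn (adjusted p = 0.0575 to 0.0854). Single libraries were not tested for lying apart within groups of 3.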

How the results depend on the processing

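Of the 34 calls of members over the 5 fits, 17 were kept under every alternative tried and 0 changed direction. The number of members called in the acute lesion effect was 6, and 3 with all 12 libraries in the fit. Over 1 transcript per gene of known GC content it was 3 higher and 2 lower, and 3 and 3, with Phc2 and Ezh2 among them, once the trend with GC content and length was also removed, which over all those genes turned 1254 higher and 1318 lower into 1173 and 2300. In the chronic lesion effect the number was 10 both with all transcripts and over genes of known GC content, and 17 over the latter with the replicate block and the trend removed, where 32.0% of all 14237 genes were called. That fit added Aebp2, Cbx2, Kdm2b, Ring1, Pcgf6, Asxl1 and Kdm6a, and the fit over all 12 libraries the last 3 of these with Cbx2 and Kdm2b. Cbx2 was also added without chronic unlesioned 2. With the block and the trend removed, Pcgf5, Jarid2 and Phc2 were added to the acute lesion effect and Rbbp7, Ezh1, Cbx6, Asxl2, Pcgf3, Kdm6a and Phc2 to the change. Between the lesioned sides Pcgf5, Eed and Cbx8 were added with all 12 libraries in the fit, and Pcgf5 without chronic lesioned 2. Between the unlesioned sides 0 became 1, Jarid2, with DESeq2, without the filter on low counts or with all 12 libraries in the fit. For the change of lesion effect 5 became 8 with DESeq2, 8 with the replicate block (13.4% of all genes), 6 over genes of known GC content and 12 over these with the block and the trend removed (19.6% of all genes). The replicate block gave 7 in the acute and 13 in the chronic lesion effect, and the members it added are given with their values above. Between treatments, where the numbers do not pair the libraries, the block left 11 of 13 on the lesioned side, without Cbx2 and Cbx6, and 0 on the unlesioned side. In the chronic lesion effect unlesioned 3 did not correlate best with its own number, so the block is less certain there. Over all genes the block raised the called number from 3125 to 5112 in the acute lesion effect, from 2697 to 4787 in the chronic one and from 1054 to 2777 in the change, while DESeq2 and the fit without the filter on low counts raised it from 622 to 1157 and 1084 between the unlesioned sides. The cause of these differences was not tested. With 1 library left out, which also leaves fewer libraries to test, 2 to 5 members were called in the acute, 8 to 10 in the chronic, 4 to 14 in the lesioned, 0 to 4 in the unlesioned comparison and 4 to 6 in the change. The acute number fell to 2 without acute unlesioned 2 and to 3 without acute unlesioned 3 or acute lesioned 2. The lesioned number fell to 6 without acute lesioned 1, chronic lesioned 1 or chronic lesioned 3, to 4 without acute lesioned 2 and to 8 without acute lesioned 3. The unlesioned number rose to 4 (Pcgf2, Jarid2, Asxl1 and Asxl2) without chronic unlesioned 2, the library with choroid plexus genes, where 12.1% of all genes were called. Of the members under 1 CPM, Phf19 had the largest SE of all 35 in each of the 5 fits, 0.27 to 0.45 on the log2 scale.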
